A study of Homo sapiens with 4 samples.

Results

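The WNT ligands and their receptors were followed in RNA of cells that carry the label A549, a line from a human lung adenocarcinoma, sorted on surface ICAM1. Protein-coding genes named WNT or FZD plus a number, with LRP5, LRP6, ROR1, ROR2 and RYK, were taken from the count table. This gave 34 genes, 19 ligands and 15 receptors, of 58735 genes listed. The series held 2 libraries from the ICAM1-high subset, set against 2 from the ICAM1-low subset. Cells of both subsets were labelled wild-type and tumor cell, were stained with an ICAM1 antibody and sorted by flow cytometry, and received no other treatment that the labels name. The labels name no separate cultures or sorts, so the p-values reflect how far the libraries of 1 subset lie apart, a spread that may be technical.

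WNT proteins are secreted, lipid-modified signals that bind the cysteine-rich domain of frizzled receptors. With the co-receptors LRP5 or LRP6, a bound frizzled recruits dishevelled and the axin complex, so that beta-catenin escapes degradation and acts with TCF/LEF factors in the nucleus. The receptor tyrosine kinase family members ROR1, ROR2 and RYK also bind WNT proteins and are known mainly for signalling that does not use beta-catenin, such as cell polarity and movement. In the lung, WNT signals pass between epithelium and mesenchyme during development and repair.

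The libraries held 16272591 to 17638647 counts, and 3 counts corresponded to 0.161 to 0.196 CPM (counts per 1e6 counts, scaled between libraries by TMM). ICAM1, the sorting marker (chromosome 19), had 2153 and 2028 counts in ICAM1-high, against 72 and 75 counts in ICAM1-low. The ICAM1-high libraries went against their cell line label at 3 genes, which lie together in a stretch of chromosome 9 that A549 is known to have lost on both copies. CDKN2A had 1009 and 1214 counts in ICAM1-high, against 0 in both ICAM1-low libraries, CDKN2B had 174 and 182 counts against 0 and 0, and MTAP had 459 and 463 counts against 1 and 8. A difference between states of A549 cells and a difference between cells of different origin therefore cannot be told apart here, and both ICAM1-high libraries carried those counts. The marker counts that follow stand against all 16250 genes tested, of which 30.4% were called higher and 29.4% lower in ICAM1-high (adjusted p under 0.05). Of 12 fibroblast markers, 6 were tested and 4 called higher. Their summed level was 33.0 and 37.2 CPM in ICAM1-high, against 5.69 and 6.85 CPM in ICAM1-low, most of it COL1A1. The others called higher were LUM, with 43 and 56 counts in ICAM1-high, against 3 and 5 in ICAM1-low, FAP, with 17 and 25 against 0 and 1, and PDGFRB, with 11 and 15 against 0 and 5, and these 3 passed the expression filter by their ICAM1-high counts alone. PDGFRB was not called with DESeq2, without ICAM1-high replicate 2 or without ICAM1-low replicate 1. COL1A2, COL3A1 and POSTN had 0 counts in both ICAM1-high libraries. Of 10 endothelial markers, 4 were tested and 3 called higher. ERG had 37 and 52 counts in ICAM1-high, against 0 and 0 in ICAM1-low, CDH5 had 37 and 27 against 0 and 1, and PECAM1 had 76 and 57 against 14 and 12, of which ERG and CDH5 passed the filter by ICAM1-high alone. The endothelial sum was 33.96 and 34.5 CPM in ICAM1-high, against 28.3 and 32.4 CPM in ICAM1-low, most of it EGFL7, which was not called except, as lower, without ICAM1-low replicate 1. TIE1 had 1 and 0 counts in ICAM1-high. Of 8 leukocyte markers, 3 were tested and 2 called higher, CD14 and, through ICAM1-high alone, LAPTM5 with 31 and 44 counts in ICAM1-high, against 0 and 4 in ICAM1-low. The leukocyte sum was 21.7 and 22.3 CPM in ICAM1-high, against 10.2 and 10.3 CPM in ICAM1-low, most of it CD14, and PTPRC and CD3E had 0 counts in all 4 libraries. Of 8 epithelial markers, 5 were called higher and 3 lower, and all 8 were counted in every library. Their summed level was 5156 and 5323 CPM in ICAM1-high, against 3801 and 3869 CPM in ICAM1-low. Called higher were KRT8, at 3013.5 and 3134 against 1312 and 1267 CPM, KRT18, KRT19, CLDN4 and CDH1. Called lower were KRT7, at 595 and 610 against 1179 and 1311 CPM, EPCAM and ELF3. With scaling by library size alone the count called lower was 1. The part of cells of these marker types in the results on WNT genes was not tested.

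ICAM1-high libraries held more WNT5A, WNT10B and WNT6 mRNA and more of 8 receptors, led in fold by FZD10 and ROR2, while ROR1, FZD6 and LRP6 were lower in them. All 15 receptors but 9 of the 19 ligands were abundant enough to test. Of the 9 ligands, 3 were called higher and 2 lower in ICAM1-high, and of the 15 receptors 8 were called higher and 3 lower. A call is an adjusted p under 0.05 in edgeR's quasi-likelihood test with Benjamini-Hochberg adjustment over all genes, which is the source of every adjusted p given here. Among all 16250 genes tested, 30.4% were called higher and 29.4% lower. The ligands' shares of 33.3% higher and 22.2% lower were thus near that background, and the receptors' were 53.3% and 20%. WNT6, WNT11, FZD10 and ROR2 were abundant enough to test only by their ICAM1-high counts, so the filter itself favours higher values among them, and all but WNT11 were called higher. The counts and medians given for the genes tested include these 4. Differences of at least 2-fold were called for 3 ligands, all higher, and for 5 receptors, 4 higher and 1 lower, against 10.8% higher and 4.71% lower among all genes. The libraries of the subsets did not overlap for 8 of the 9 ligands and 14 of the 15 receptors tested, against 78.3% of all genes. The median log2 fold change, ICAM1-high minus ICAM1-low, was 0.63 for the ligands tested, 0.68 for the receptors and 0.01 for all genes. With scaling by library size alone, 4 ligands were called higher and 1 lower, 11 receptors higher and 3 lower, and 6735 of all genes higher and 3124 lower, in place of 4935 and 4771. That scaling moved the median of all genes to 0.185. In bulk RNA, fewer cells that express a gene and less mRNA per cell cannot be told apart.

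**Figure D1:**
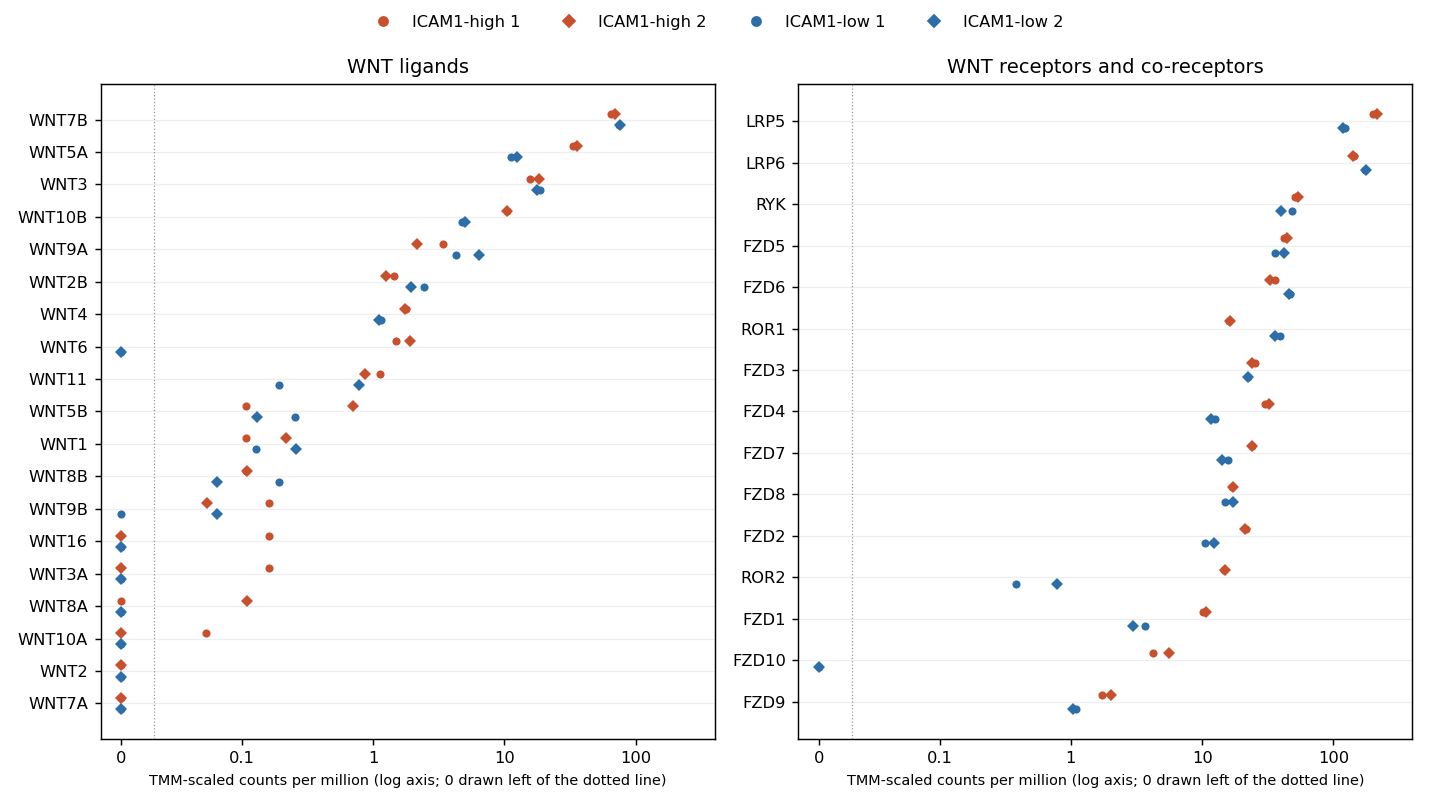
Level of each WNT ligand (left) and receptor (right) in each library, in TMM-scaled CPM on a log axis; orange-red points are the 2 ICAM1-high and blue points the 2 ICAM1-low libraries, and values of 0 are drawn left of the dotted line. WNT7B stood above the other ligands in all 4 libraries, and FZD10, ROR2 and WNT6 were far apart between the subsets.

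WNT5A is a ligand known mainly for signalling through ROR and RYK receptors and for directing cell polarity and migration. Its gene lies on the minus strand of chromosome 3, 55465715 to 55490539 (GRCh38, GENCODE 29). WNT5A was at 33.3 and 35.8 CPM in the ICAM1-high libraries, against 11.2 and 12.5 CPM in the ICAM1-low libraries. The subsets were well apart and the libraries within each close, with a log2 fold change of 1.55 and a standard error (SE) of 0.10 (adjusted p = 1.07e-21). WNT10B, a ligand of beta-catenin signalling known for its role in bone and fat formation, was at 10.5 CPM in each ICAM1-high library and at 4.73 and 5.02 CPM in the ICAM1-low libraries (log2 fold change 1.10, SE 0.17, adjusted p = 3.51e-08). WNT6, an epithelial ligand known from kidney and limb development (chromosome 2, 218859821 to 218874233, plus strand), had 28 and 35 counts in ICAM1-high, against 0 in both ICAM1-low libraries. Set against 3 counts, the limit taken for a subset at 0, WNT6 was at least 17.6-fold higher.

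WNT7B, a ligand made by the lung epithelium during development, was the most abundant ligand per kilobase of exon. It was at 64.5 and 70.1 CPM in ICAM1-high, against 74.8 and 76.7 CPM in ICAM1-low. The subsets did not overlap, but the difference was small (log2 fold change -0.17, SE 0.06, adjusted p = 0.0155), and its direction turned to 0.0037 (adjusted p = 0.965) with scaling by library size alone. The call was also lost with DESeq2 and without ICAM1-high replicate 1 or either ICAM1-low library, with adjusted p between 0.00102 and 0.965 over 12 alternatives. WNT9A, which acts in joint and skeletal development, was at 3.43 and 2.18 CPM in ICAM1-high, against 4.29 and 6.39 CPM in ICAM1-low. Its libraries were spread widely within each subset, and the log2 fold change of -0.92 (SE 0.24, adjusted p = 0.000606) was -0.62 without ICAM1-low replicate 2 (adjusted p = 0.0635, range 1.74e-05 to 0.0635 over 12 alternatives).

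The other 4 ligands tested were not called. WNT3, which is needed for the first body axis in vertebrates, was at 15.8 and 18.5 CPM in ICAM1-high, against 18.5 and 17.6 CPM in ICAM1-low. Its subsets overlapped, and the interval of its log2 fold change was -0.30 to 0.14 (95% confidence). WNT4, known for its part in kidney and ovary development, was at 1.77 and 1.74 CPM in ICAM1-high, against 1.15 and 1.11 CPM in ICAM1-low (adjusted p = 0.129), and WNT2B, a mesenchymal ligand of the early lung, at 1.45 and 1.252 against 2.43 and 1.96 CPM (adjusted p = 0.0644). At these low counts the intervals were wide, -0.09 to 1.36 for WNT4 and -1.36 to -0.03 for WNT2B on the log2 scale. Exons of ST7L on the other strand cover 21.2% of the exon bases of WNT2B, and the strand setting of the counting is not given in the sources used here. WNT11, a ligand of cell movement in development, had 21 and 16 counts in ICAM1-high, against 3 and 12 counts in ICAM1-low (adjusted p = 0.0806). It was called higher with scaling by library size alone, with limma-voom and without ICAM1-low replicate 2. Its log2 fold change of 1.03 ranged from 0.34 to 2.33 when single libraries were left out.

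The remaining 10 ligands did not pass the expression filter. WNT2, a mesenchymal ligand of the developing lung, and WNT7A had 0 counts in all 4 libraries. WNT10A, WNT8A, WNT16 and WNT3A had 1 to 3 counts in all, each in a single ICAM1-high library. WNT9B had 4 counts in ICAM1-high, against 1 in ICAM1-low, WNT8B 4 and 4, WNT1 6 and 6, and WNT5B, a close relative of WNT5A, 15 and 6. The ratio for WNT5B was 2.09 with a 95% exact binomial interval of 0.767 to 6.58, and 13 of its 15 ICAM1-high counts came from replicate 2. A difference in these 10 genes was not detectable at this depth, and such intervals cover counting error only.

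Per kilobase of exon, used here to set genes beside each other, the ligands summed to 28.0 and 29.9 CPM per kilobase in ICAM1-high, against 24.2 and 25.4 in ICAM1-low. The length takes in all annotated exons of a gene and can differ from that of the transcripts expressed. Shares and ranks between genes depend on it. WNT7B made up 45.7% and 46.4% of that sum in ICAM1-high, against 61.0% and 59.7% in ICAM1-low. WNT5A took 16.1% and 16.2% of it in ICAM1-high, against 6.24% and 6.62% in ICAM1-low, and ranked 2 among the ligands in ICAM1-high but 4 in ICAM1-low. WNT10B held 14.2% and 13.3% against 7.42% and 7.5%, and WNT3 held 13.1% and 14.2% against 17.6% and 16.0%. WNT3, WNT10B and WNT5A lay close together in ICAM1-high, and the order of WNT3 and WNT10B there differed between the libraries. These shares are free of scaling between libraries, and the ratio of WNT5A to WNT7B per kilobase was 0.352 and 0.349 in ICAM1-high, against 0.102 and 0.111 in ICAM1-low.

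**Figure D2:**
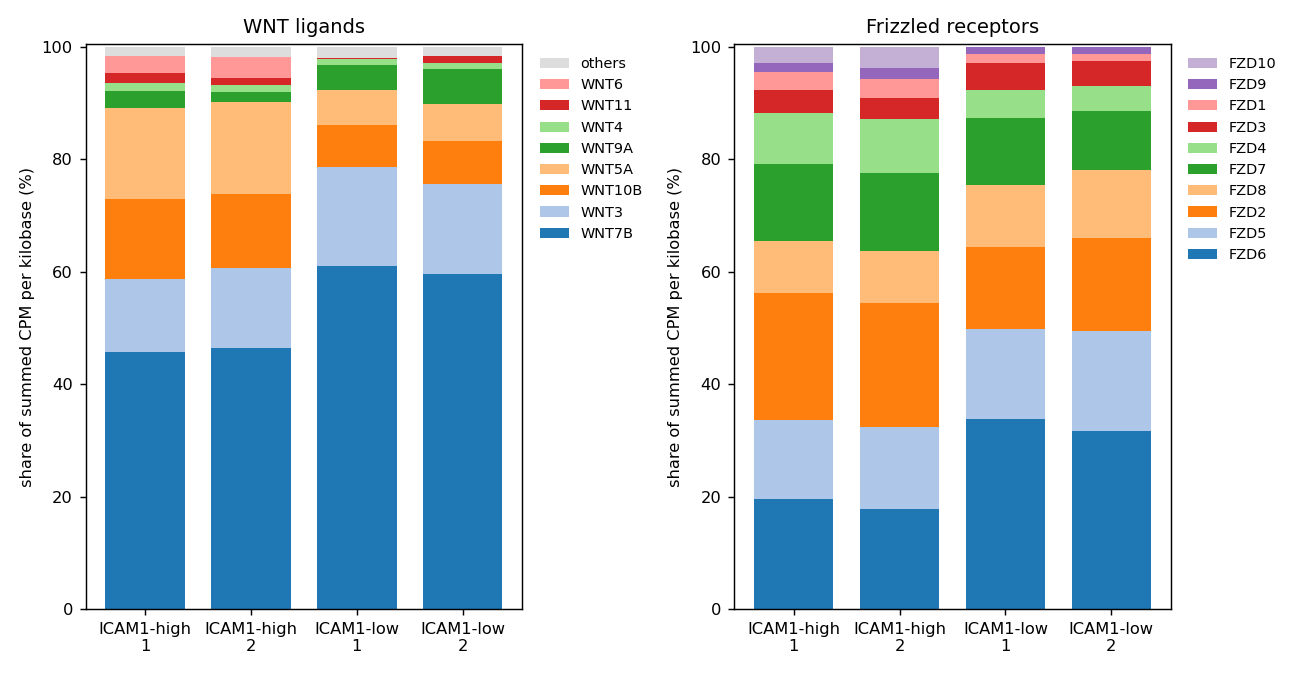
Make-up of the summed level per kilobase of exon of the ligands (left) and the frizzled receptors (right) in each library, in percent; each colour is a gene. WNT7B filled 45.7% to 46.4% of the ligand bar in ICAM1-high, against 59.7% to 61.0% in ICAM1-low, and FZD6 filled 17.9% to 19.7% and 31.7% to 33.9% of the frizzled bar.

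The ROR pair showed opposite differences. ROR2 (chromosome 9, 91563091 to 91950162, minus strand), a receptor of WNT5A needed for skeletal growth and cell polarity, was at 14.6 and 14.8 CPM in ICAM1-high, against 0.384 and 0.782 CPM in ICAM1-low. These were 273 and 272 counts in ICAM1-high, against 6 and 12 counts in ICAM1-low, so the fold rests on few ICAM1-low counts. The log2 fold change was 4.65 (SE 0.24, adjusted p = 5.49e-27) and ranged from 4.21 to 5.23 when single libraries were left out. ROR1 (chromosome 1, 63774022 to 64181498, plus strand), a receptor of fetal tissue that many tumours express, was at 15.9 and 16.4 CPM in ICAM1-high, against 39.3 and 35.9 CPM in ICAM1-low (log2 fold change -1.22, SE 0.09, adjusted p = 1.24e-18). Per kilobase of exon, the ratio of ROR2 to ROR1 within a library was 1.06 and 1.04 in ICAM1-high, against 0.0113 and 0.0252 in ICAM1-low. The ICAM1-high libraries thus held similar levels of both mRNAs, and the ICAM1-low libraries nearly only that of ROR1. RYK, which carries an inactive kinase domain and a WNT-binding domain, was at 50.8 and 53.6 CPM in ICAM1-high, against 48.0 and 40.2 CPM in ICAM1-low. Its log2 fold change of 0.24 (SE 0.08, adjusted p = 0.00424) was not called with DESeq2 or without ICAM1-low replicate 2 (0.11), with adjusted p from 1.62e-06 to 0.374 over 12 alternatives.

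The promoters of WNT5A and ROR2, the called ligand and the called receptor with the smallest adjusted p, are shown with that of ROR1, which was chosen after its values were seen because it moved against ROR2. Each sequence, from RefSeq (GRCh38.p14), runs from 250 bases before to 50 bases after an annotated RefSeq start, 5′ to 3′ along the gene. All but the ROR1 gene are on the minus strand. RefSeq starts can differ from the GENCODE positions given here. The ROR2 window lies wholly outside the GENCODE gene, and the outer of the 2 WNT5A windows lies inside it. Capitals mark the GC box GGGCGG and the TCF/LEF core, searched as ACAAAG and TCAAAG, on either strand, and overlapping matches are joined.
ROR2, chr9:91950179-91950478: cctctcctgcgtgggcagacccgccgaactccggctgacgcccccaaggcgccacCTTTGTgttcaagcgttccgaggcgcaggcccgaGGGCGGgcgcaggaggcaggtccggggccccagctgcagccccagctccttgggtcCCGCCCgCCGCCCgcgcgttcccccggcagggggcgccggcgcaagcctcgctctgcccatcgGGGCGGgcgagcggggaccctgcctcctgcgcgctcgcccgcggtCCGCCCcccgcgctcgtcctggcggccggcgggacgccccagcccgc
ROR1, chr1:63773767-63774066: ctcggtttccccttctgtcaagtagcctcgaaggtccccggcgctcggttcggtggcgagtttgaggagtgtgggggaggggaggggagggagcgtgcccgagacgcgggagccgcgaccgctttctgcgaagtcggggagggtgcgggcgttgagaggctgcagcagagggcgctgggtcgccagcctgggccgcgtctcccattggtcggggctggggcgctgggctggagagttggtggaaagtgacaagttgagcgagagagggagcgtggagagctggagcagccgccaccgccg
WNT5A, inner start, chr3:55481349-55481648: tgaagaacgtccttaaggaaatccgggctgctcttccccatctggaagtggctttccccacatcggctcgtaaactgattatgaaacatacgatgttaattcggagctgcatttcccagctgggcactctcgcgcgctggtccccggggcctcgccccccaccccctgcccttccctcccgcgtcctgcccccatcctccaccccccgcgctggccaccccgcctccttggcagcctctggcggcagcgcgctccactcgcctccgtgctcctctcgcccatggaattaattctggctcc
WNT5A, outer start, chr3:55487257-55487556: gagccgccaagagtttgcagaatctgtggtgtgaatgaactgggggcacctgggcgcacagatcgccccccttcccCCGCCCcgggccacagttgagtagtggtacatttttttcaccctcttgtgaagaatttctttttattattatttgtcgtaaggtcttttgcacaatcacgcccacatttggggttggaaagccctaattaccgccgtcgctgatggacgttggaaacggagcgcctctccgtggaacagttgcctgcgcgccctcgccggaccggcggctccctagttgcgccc
The ROR2 window held 5 GC boxes, 1 TCF/LEF core and a G+C content of 79.7%, and the ROR1 window held 0 of either motif at 69.0% G+C. The outer WNT5A window held 1 GC box, the inner window 0, and neither held the TCF/LEF core. Among 34943 promoter windows of this length, 44.9% held a GC box and 26.2% a TCF/LEF core. Of the 34 genes, 25 had a promoter entry, with 28 windows, of which 22 held a GC box and 4 a TCF/LEF core, in FZD1, ROR2, WNT3 and WNT8B. A match is a description of the letters and not of factor binding, and the counts do not show which WNT5A start was used.

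Among the frizzled receptors, 5 of 10 were called higher, 1 lower and 4 were not called. These were 50% higher and 10% lower, against 30.4% and 29.4% of all genes, and FZD10 passed the filter through ICAM1-high alone. FZD10 (chromosome 12, 130162459 to 130165740, plus strand), a receptor with little expression in most adult tissue, had 79 and 102 counts in ICAM1-high, against 0 in each ICAM1-low library. This made FZD10 at least 50.5-fold higher, by the same limit of 3 counts. In all, 4308 of the 58735 genes had counts in ICAM1-high and 0 counts in ICAM1-low, CDKN2A and CDKN2B of the label check among them. Whether FZD10 and those genes share a cause was not tested. FZD4 (chromosome 11, 86945679 to 86955391, minus strand), the receptor of norrin in retinal vessels, was at 30.3 and 32.1 CPM in ICAM1-high, against 12.6 and 11.7 CPM in ICAM1-low (log2 fold change 1.36, SE 0.10, adjusted p = 8.16e-19). Exons of PRSS23 on the other strand cover 18.9% of the exon bases of FZD4, and how far reads of PRSS23 entered its counts was not tested.

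FZD1, FZD2 and FZD7 are close relatives by sequence and were all called higher. FZD1 was at 10.2 and 10.7 CPM in ICAM1-high, against 3.65 and 2.999 CPM in ICAM1-low (log2 fold change 1.65, SE 0.18, adjusted p = 3.20e-12). FZD2, a receptor of WNT5A, was at 21.7 and 21.1 CPM in ICAM1-high, against 10.6 and 12.4 CPM in ICAM1-low (log2 fold change 0.90, SE 0.12). FZD7, known from intestinal stem cells, was at 23.8 and 24.1 CPM in ICAM1-high, against 15.6 and 14.3 CPM in ICAM1-low (log2 fold change 0.68, SE 0.11). In each of the 3 genes the subsets were apart by more than the spread within them. Reads from stretches that the 3 genes share may have been split between them, since the treatment of reads that match several genes is not given in the sources used here.

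FZD6, a receptor of planar cell polarity in skin, was the only frizzled called lower. It was at 36.2 and 32.9 CPM in ICAM1-high, against 46.8 and 45.6 CPM in ICAM1-low (log2 fold change -0.42, SE 0.08, adjusted p = 3.26e-06). Its relative FZD3, which guides axons, was at 25.4 and 23.8 CPM in ICAM1-high, against 22.4 and 22.2 CPM in ICAM1-low, and was not called (adjusted p = 0.214, range 0.00375 to 0.581 over 12 alternatives). FZD5 was at 42.3 and 43.9 CPM in ICAM1-high, against 36.1 and 42.1 CPM in ICAM1-low, and its relative FZD8 at 16.9 and 17.04 against 14.97 and 17.3 CPM. Neither was called, with intervals of -0.01 to 0.30 for FZD5 and -0.15 to 0.30 for FZD8 on the log2 scale. FZD5 was called higher with scaling by library size alone and without ICAM1-low replicate 2 (adjusted p from 0.000315 to 0.849 over 12 alternatives). FZD9, a receptor of bone and brain, had 32 and 37 counts in ICAM1-high, against 17 and 16 counts in ICAM1-low. Its adjusted p of 0.0519 lay just above the threshold, and FZD9 was called with scaling by library size alone or a minimum mean of 1 CPM (adjusted p from 0.0171 to 0.329 over 12 alternatives).

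Per kilobase of exon, the 10 frizzleds summed to 45.3 CPM per kilobase in each ICAM1-high library and to 33.97 and 35.4 in the ICAM1-low libraries. FZD2 stood first in ICAM1-high, at 22.7% and 22.0% of that sum against 14.7% and 16.6% in ICAM1-low. FZD6 made up 19.7% and 17.9% in ICAM1-high, against 33.9% and 31.7% in ICAM1-low, where it stood first. By sequence group, FZD1, FZD2 and FZD7 made up 39.5% and 39.2% in ICAM1-high, against 28.1% and 28.2% in ICAM1-low, whereas FZD3 and FZD6 made up 23.8% and 21.7% against 38.7% and 36.2%. FZD4, FZD9 and FZD10 together held 13.5% and 15.2% in ICAM1-high, against 6.39% and 5.72% in ICAM1-low. FZD5 and FZD8 held 23.2% and 23.8% against 26.8% and 29.8%.

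The co-receptors LRP5 and LRP6, large membrane proteins of the low-density lipoprotein receptor family, were the most abundant receptors per kilobase of exon. LRP5 (chromosome 11, 68312609 to 68449275, plus strand) was at 199 and 215 CPM in ICAM1-high, against 123 and 118 CPM in ICAM1-low (log2 fold change 0.78, SE 0.05, adjusted p = 2.20e-22). LRP6 was at 145 and 141 CPM in ICAM1-high, against 175 and 176 CPM in ICAM1-low (log2 fold change -0.30, SE 0.05, adjusted p = 2.77e-07). The subsets did not overlap for either gene, and the directions were opposite. The ratio of LRP5 to LRP6 per kilobase within a library was 2.30 and 2.55 in ICAM1-high, against 1.18 and 1.12 in ICAM1-low.

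**Figure D3:**
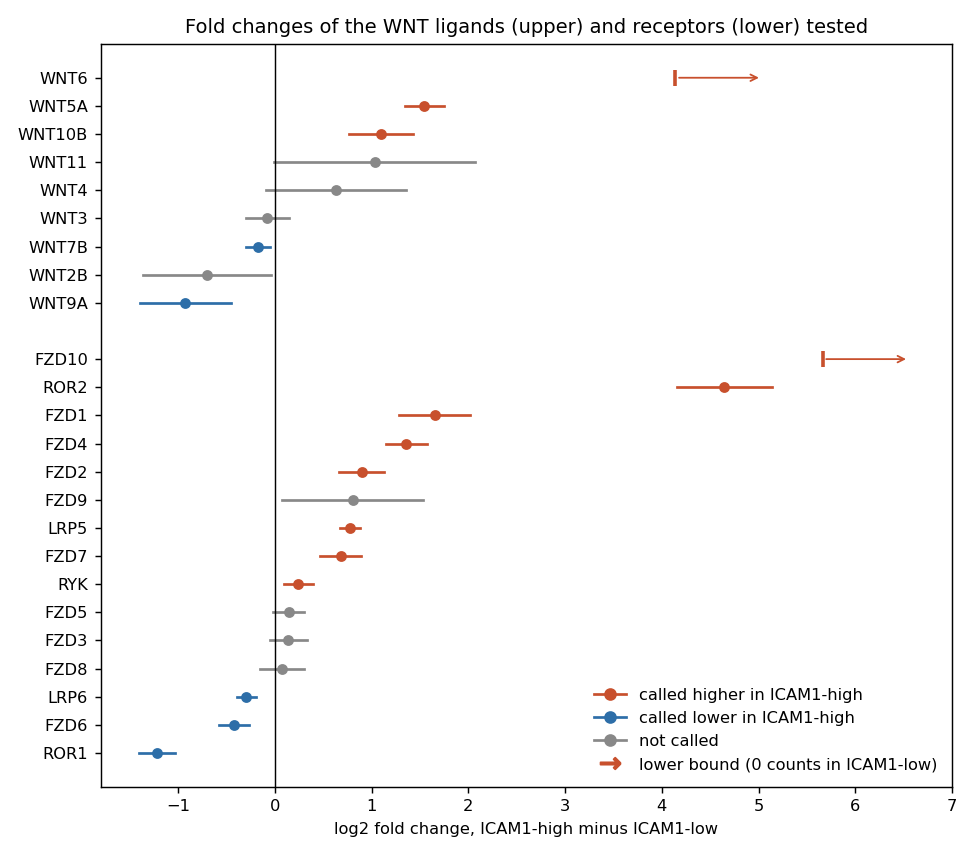
Log2 fold change, ICAM1-high minus ICAM1-low, of the 9 ligands (upper) and 15 receptors (lower) tested; points are edgeR estimates with 95% confidence intervals, coloured by call, and arrows start at the lower bound for the 2 genes with 0 counts in ICAM1-low. The bounds of FZD10 and WNT6 and the estimate of ROR2 lie above 4, and ROR1 is the lowest at -1.22.

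**Figure D4:**
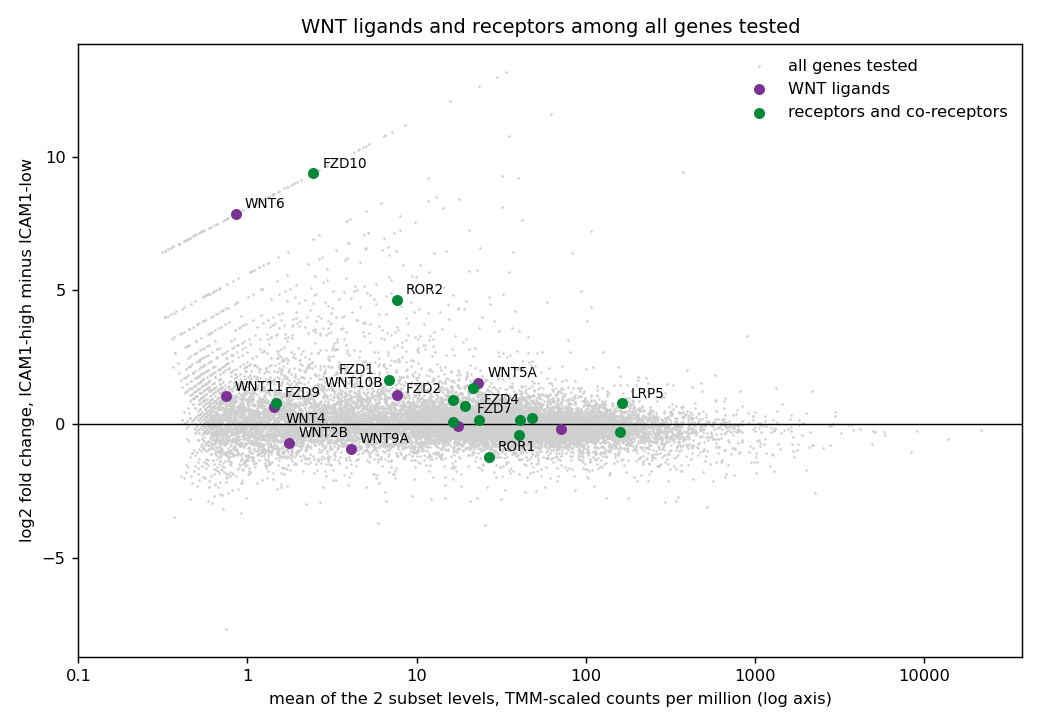
Log2 fold change, ICAM1-high minus ICAM1-low, against the mean level in CPM (log axis) for all 16250 genes tested (grey), the WNT ligands (purple) and the receptors (green). The estimates drawn for FZD10 and WNT6 depend on the prior count, since both had 0 counts in ICAM1-low, and ROR2 is the highest of the others at 4.65.

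Genes that act on these ligands and receptors were described in 8 lists of WNT pathway genes, 109 genes in all. Of these, 86 were tested, 44 were called higher in ICAM1-high and 25 lower, which was 51.2% and 29.1% of those tested, against 30.4% and 29.4% of all genes. The share called lower was thus at the background. With scaling by library size alone these counts were 50 and 15. Some genes stand in more than 1 list. Of the 86 genes, 7 passed the filter by their ICAM1-high counts alone, as did 1536 of all 16250 genes tested. The filter itself favours higher values among such genes, and the shares given include them. The lists were chosen with earlier results of these data known.

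In a list of 5 genes for secretion or inactivation of WNT proteins, 4 were called higher and 0 lower. These were 80% and 0% of those tested, against 30.4% and 29.4% of all genes. NOTUM, the gene not called, had 21 and 13 counts in ICAM1-high, against 12 and 6 in ICAM1-low. WLS, the carrier that brings WNT proteins to the cell surface, was at 43.3 and 45.7 CPM in ICAM1-high, against 27.9 and 20.4 CPM in ICAM1-low (log2 fold change 0.88, SE 0.09). PORCN, which attaches the lipid, was at 13.4 and 16.1 against 9.08 and 7.76 CPM (0.81, SE 0.14). TRABD2A and TRABD2B, membrane proteases that inactivate WNT proteins, differed more, by log2 fold changes of 1.81 (SE 0.16) and 3.84 (SE 0.39). TRABD2B had 67 and 108 counts in ICAM1-high, against 5 and 5 in ICAM1-low, and passed the filter through ICAM1-high alone.

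Among antagonists, 7 of 18 were tested, 3 were called higher and 2 lower. These were 42.9% and 28.6% of those tested, against 30.4% and 29.4% of all genes, so the share called lower was near the background. The count called lower was 1 with scaling by library size alone and at a threshold of 0.01. Of the 3 called higher, KREMEN2 passed the filter through ICAM1-high alone. IGFBP4, called lower besides DKK1, differed little (log2 fold change -0.10, SE 0.04). DKK1, a secreted blocker of LRP5 and LRP6, was at 286 and 280 CPM in ICAM1-high, against 733 and 727 CPM in ICAM1-low (log2 fold change -1.37, SE 0.04, adjusted p = 2.68e-41). Its cell surface partners differed the other way. KREMEN1 was at 20.1 and 21.0 CPM in ICAM1-high, against 12.5 and 11.1 CPM in ICAM1-low, and KREMEN2 had 37 and 57 counts in ICAM1-high, against 14 and 5 in ICAM1-low. The log2 fold change of KREMEN2, 2.04 (SE 0.40), was 2.93 without ICAM1-low replicate 1 and 1.49 without replicate 2. SFRP1, a secreted decoy for WNT proteins, was at 30.2 and 30.5 against 16.8 and 12.2 CPM (log2 fold change 1.06, SE 0.11).

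In the R-spondin module, secreted proteins keep frizzleds at the surface by removing the ubiquitin ligases RNF43 and ZNRF3. Of its 9 genes, 5 were tested, 3 were called higher and 2 lower. These were 60% and 40% of those tested, against 30.4% and 29.4% of all genes. The ligand RSPO3 was at 117 and 100.7 CPM in ICAM1-high, against 189 and 182 CPM in ICAM1-low (log2 fold change -0.77, SE 0.05), and the receptor LGR4 at 287 and 269 against 436 and 437 CPM (-0.65, SE 0.04). The less abundant receptor LGR6 was at 10.1 and 9.75 CPM in ICAM1-high, against 5.05 and 4.56 CPM in ICAM1-low, and RNF43 at 18.35 and 19.4 against 10.2 and 12.6 CPM, log2 fold changes of 1.05 (SE 0.17) and 0.73 (SE 0.12).

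Among other receptor modulators, 7 of 12 were tested, 4 were called higher and 2 lower, the second count being 0 with scaling by library size alone and without ICAM1-low replicate 1. Of the modulators tested, 57.1% were called higher and 28.6% lower, against 30.4% and 29.4% of all genes. ADGRA2, which with RECK makes up a co-receptor for WNT7A and WNT7B in brain vessels, was at 5.42 and 5.50 CPM in ICAM1-high, against 0.704 and 1.17 CPM in ICAM1-low (log2 fold change 2.53, SE 0.29, adjusted p = 9.86e-12). RECK was at 15.2 and 13.01 CPM in ICAM1-high, against 10.8 and 10.7 CPM in ICAM1-low, and its call was lost with DESeq2 and without ICAM1-high replicate 1 (adjusted p from 0.000107 to 0.148 over 12 alternatives). TSPAN12, the partner of FZD4 in norrin signalling, had 52 and 66 counts in ICAM1-high, against 14 and 15 in ICAM1-low (log2 fold change 1.76, SE 0.33). Norrin itself, NDP, had 0 counts in all 4 libraries. ATP6AP2, which links LRP6 to the proton pump, was at 119 and 114 CPM in ICAM1-high, against 133 and 127 CPM in ICAM1-low, a difference that turned to 0.00804 with scaling by library size alone. It was also not called without ICAM1-low replicate 1 (adjusted p from 0.000252 to 0.905 over 12 alternatives).

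Inside the cell, 7 of 21 genes of dishevelled and the destruction complex were called higher and 11 lower, which was 33.3% and 52.4%. The share called higher was near that of all genes, and the count called lower was 6 with scaling by library size alone. Casein kinases CSNK1D and CSNK1A1, the second of which marks beta-catenin for degradation, fell by 0.71 (SE 0.04) and 0.69 (SE 0.05) on the log2 scale, and TNKS2, a tankyrase that destabilises axin, fell by 0.63 (SE 0.06). AXIN2, both a scaffold of the complex and a target of beta-catenin, was at 15.4 and 17.04 CPM in ICAM1-high, against 6.40 and 6.91 CPM in ICAM1-low (log2 fold change 1.28, SE 0.14, adjusted p = 1.09e-12). Of 17 nuclear factors, 6 were called higher and 6 lower, 35.3% each way and so close to the shares of all genes. LEF1, among those called higher, passed the filter through ICAM1-high alone. The corepressors differed in direction, with TLE1 at 93.7 and 96.4 CPM in ICAM1-high, against 204 and 205 CPM in ICAM1-low, and TLE3 at 88.0 and 103 against 51.5 and 49.5 CPM. TCF7L2 was at 38.3 and 39.0 CPM in ICAM1-high, against 79.1 and 78.4 CPM in ICAM1-low (log2 fold change -1.03, SE 0.07), and CTBP2, another corepressor, fell by 0.68 (SE 0.05).

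Of 20 genes listed as known targets of beta-catenin, 17 were tested, 15 were called higher and 1 lower. These were 88.2% and 5.88% of those tested, against 30.4% and 29.4% of all genes. The median log2 fold change was 0.73 against 0.01 for all genes. LEF1 had 57 and 48 counts in ICAM1-high, against 0 in each ICAM1-low library, so LEF1 was at least 29.3-fold higher by the same limit. SP5, also at 0 counts in ICAM1-low and named after its values were seen, had 26 and 28 counts in ICAM1-high, at least 15.1-fold higher. LEF1, SP5 and NOTUM passed the filter through ICAM1-high alone. PPARD, a nuclear receptor, was at 28.0 and 28.9 CPM in ICAM1-high, against 16.6 and 16.8 CPM in ICAM1-low. The abundant targets MYC and CCND1, also named after their values were seen, differed less, by log2 fold changes of 0.23 (SE 0.05) and 0.27 (SE 0.04). The member called lower was DKK1, the difference of which was larger than that of the sum. The summed level of the 20 genes was lower in ICAM1-high, at 1949 and 1937 CPM, than in ICAM1-low, at 2125 and 2111 CPM.

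Of 16 genes of planar cell polarity, 14 were tested, 7 were called higher and 2 lower. These were 50% and 14.3% of those tested, against 30.4% and 29.4% of all genes. The count called lower was 1 with scaling by library size alone. The 2 called lower were FUZ (log2 fold change -0.54, SE 0.13) and CELSR3 (-0.30, SE 0.07). CELSR2, a cadherin with many repeats, was at 54.8 and 57.9 CPM in ICAM1-high, against 25.5 and 26.1 CPM in ICAM1-low (log2 fold change 1.13, SE 0.08, adjusted p = 1.01e-20). VANGL2 and VANGL1, membrane proteins that set the polarity axis, rose by 1.48 (SE 0.15) and 0.63 (SE 0.07) on the log2 scale, and PRICKLE3 rose by 0.88 (SE 0.08).

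**Figure D5:**
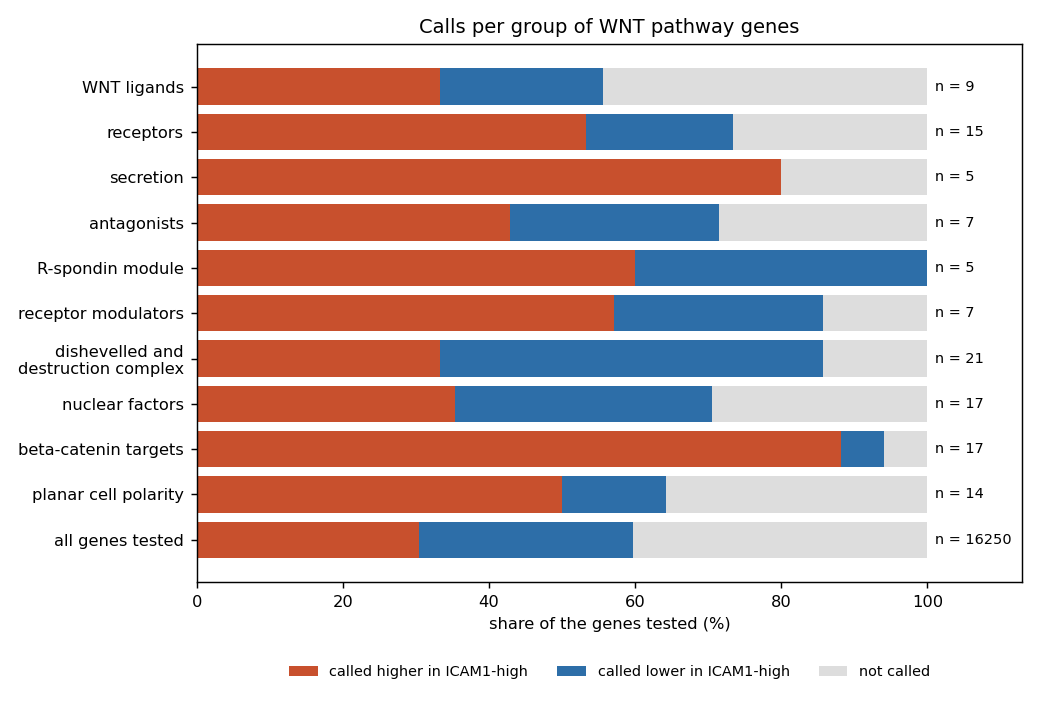
Share of the genes tested in each group that were called higher (orange-red), called lower (blue) or not called (grey) in ICAM1-high against ICAM1-low, in percent, with the number tested at the right. Of all genes 30.4% were called higher, and the beta-catenin targets had 15 of 17 called higher. Some groups, and all genes, include genes that passed the filter through ICAM1-high alone. The group named secretion also holds TRABD2A and TRABD2B, which inactivate WNT proteins.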

How the data were processed

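RNA-seq of sorted cells labelled A549 gave 4 libraries, 2 for each ICAM1 subset, grouped by their titles. A single table of raw gene counts, with no normalization, was deposited by the authors. Per the labels' protocols, Trizol was used for RNA and a SMARTER kit for the mRNA libraries. FastQC 0.10.1 and GRCh38 are named per the submitters' processing notes. Aligner, counting program and strand setting were not given in the sources used here. All 58735 identifiers were in GENCODE 29, which supplied positions, gene types and merged exon lengths.

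Counts were tested with edgeR 4.0.16 in R 4.3.3 by the quasi-likelihood test with robust estimation and TMM scaling. Low genes were removed by edgeR's default filter, whose minimum count is 10 (scaled to library size, in at least 2 libraries) and whose minimum total is 15. Benjamini-Hochberg adjustment covered 16250 genes, with a threshold of 0.05. Levels are TMM-scaled counts per 1e6 (CPM), and the procedure was tested on simulated data. Alternatives were DESeq2 size factors, library size alone, no filter, a minimum mean of 1 CPM, DESeq2 1.42.0, limma-voom (limma 3.58.1), the replicate number as a block, a threshold of 0.01 and leaving out every library once. Where this leaves a subset with 1 library, the spread comes from the other subset and is assumed to hold for both.

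The members and lists were chosen with earlier results of these data known. Every member was described. Of each pathway list, up to 4 called genes with the smallest adjusted p were named, with ICAM1 and the 3 deletion genes as checks. Marker genes, and CELSR3, FUZ, IGFBP4 and NOTUM, were picked for naming after their values were seen. For a gene at 0 counts in a subset, 3 counts over the subset set the bound of its fold.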

Additional observations from a re-analysis of the deposited data

How the results depend on the processing

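The counts of receptors called higher (7 to 11) and lower (3 throughout) stayed within 1.5 times those reported under every alternative run, and ligands called higher ranged from 2 to 4. Ligands called lower, 2 as reported, were 1 with library size alone, 1 with DESeq2 and 1 at a threshold of 0.01, and 0 to 2 when single libraries were left out, with 0 without ICAM1-low replicate 2, where both WNT7B and WNT9A lost their calls. With library size alone, 3124 of all genes and 15 of the pathway genes were called lower. Under that scaling WNT7B reached 0.0037, WNT3 0.097 and ATP6AP2 0.00804 on the log2 scale, each a change of sign. When single libraries were left out, WNT3 ranged from -0.19 to 0.023 and FZD8 from -0.035 to 0.17, and neither was called. In all, 266 of 286 values of the 24 members tested kept their direction and side of the threshold. With the replicate number as a block, 3 ligands were called higher and 2 lower, 8 receptors higher and 3 lower, and 4976 and 4836 of all genes. The block changed no call of a named gene whose value was followed under it, which CELSR3, FUZ, IGFBP4 and the epithelial markers were not. The labels tie the number to no shared batch or day. Deviations of same-numbered libraries correlated at 0.043 over 11280 genes. This single value cannot show whether they shared a batch that acts on some genes or on 1 subset, and that was not tested. The floor of 3 counts, 0.161 to 0.196 CPM, limits what can be said of the 10 ligands not tested.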

Other observations

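Several WNT genes lie next to each other in the genome in pairs, and the 2 genes of each of 4 such pairs differed widely in counts in the ICAM1-high subset. WNT10B and WNT1 lie 6689 bases apart on chromosome 12, and had 387 and 6 counts in the ICAM1-high subset and 151 and 6 counts in the ICAM1-low subset. WNT3 and WNT9B, on opposite strands of chromosome 17, had 634 and 4 counts in ICAM1-high and 560 and 1 in ICAM1-low. Their outermost GENCODE starts are 46 bases apart, but their RefSeq promoter windows begin far apart, at 46818643 and 46851333. WNT9A and WNT3A, 59152 bases apart on chromosome 1, had 104 and 3 counts in ICAM1-high and 165 and 0 in ICAM1-low. In the WNT6 and WNT10A pair, 6129 bases apart on chromosome 2, WNT6 had 63 counts in ICAM1-high while WNT10A had 1, and both had 0 in ICAM1-low. The pairs were chosen after their positions were looked up, and no test was made.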
